A study of Mus musculus with 6 samples.

Results

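Numbered Zfp genes are mouse zinc-finger protein genes whose symbol is Zfp followed by digits only. Members were all peaks of the 5 annotated peak lists whose nearest gene carries such a symbol, with Zfp608, Zfp609 and Zfp488 left out. They came to 1073 of 91185 peaks, named 201 of 12140 genes, and merged into 407 of 32693 regions. The 3 genes left out match the name and hold 205 further peaks, 184 of them Zfp608's. Members are thus chosen by name with 1 exception for these genes, which were set apart with their peak counts known, and below they are counted among the other genes.

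Most numbered Zfp proteins carry arrays of C2H2 zinc fingers, in which a zinc ion held by cysteines and histidines folds a short loop that reads DNA. Many also carry a KRAB domain, which recruits the co-repressor Trim28 and through it enzymes that lay down silencing chromatin, with retroelements as a major class of targets. Such genes multiplied by tandem duplication, so many lie in clusters of neighbouring copies. The name does not fix the structure: Zfp36, for instance, has CCCH fingers that bind RNA. E2A, the protein mapped here, is the product of Tcf3, and its splice forms E12 and E47 bind the E-box motif CANNTG as basic helix-loop-helix dimers.

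ChIP-seq, the sequencing of DNA that comes down with a protein's antibody, was used to find E2A on the genome of neural stem cells from C57BL/6J mouse embryos at E12.5. The 5 lists come from 3 wild-type libraries (wt replicates 1 to 3), 1 library of E12-/- cells (E12KO) and 1 library of E47-/- cells (E47KO). An input library was not analysed here. Cells of every group were grown with EGF and FGF-2 (20 ng/ml) and fixed with 1.5 mM EGS for 20 min followed by 1% formaldehyde for 10 min. Each knockout lacks 1 of the 2 splice forms, so the antibody's target is not removed in full from either. Which embryos, litters or cultures the wt libraries came from is not stated, so the spread between them may be technical. The lists differed in length, with 6814, 12772 and 24194 peaks in wt replicates 1 to 3, 25229 in E12KO and 22176 in E47KO. The sources give no read totals, so the depth behind each list is unknown. Peak lists hold no expression values, so neither the labelled cell type nor the deletions could be checked.

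The promoters of 5 genes with a promoter peak in every list are shown first, since they include the 2 strongest such peaks and run from 3 E-boxes to none. Each is the 250 bases before the start in RefSeq (GRCm38.p6), read 5′ to 3′ on the gene's strand, with every CANNTG in capitals. The peaks are on mm9, so the sequences were matched to them by gene and not by position. Zfp467, a regulator of the choice between fat and bone cell fates, lies at chr6:48445091-48445340 on the minus strand.
Zfp467: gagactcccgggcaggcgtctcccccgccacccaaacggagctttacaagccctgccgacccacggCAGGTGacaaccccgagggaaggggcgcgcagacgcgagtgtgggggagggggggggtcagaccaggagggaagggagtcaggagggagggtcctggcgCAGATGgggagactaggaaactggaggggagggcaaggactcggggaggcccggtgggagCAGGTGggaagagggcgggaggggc
Zfp651 lies at chr9:121759783-121760032 on the plus strand and holds CAGCTG 2 times.
Zfp651: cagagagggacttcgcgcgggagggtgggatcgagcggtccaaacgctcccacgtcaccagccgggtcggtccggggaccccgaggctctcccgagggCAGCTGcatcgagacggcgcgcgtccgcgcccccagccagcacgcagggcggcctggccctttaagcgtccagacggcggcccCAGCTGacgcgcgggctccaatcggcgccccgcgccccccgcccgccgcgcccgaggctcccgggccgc
Zfp827 lies at chr8:79028187-79028436 on the plus strand, with 1 CAGGTG near the start.
Zfp827: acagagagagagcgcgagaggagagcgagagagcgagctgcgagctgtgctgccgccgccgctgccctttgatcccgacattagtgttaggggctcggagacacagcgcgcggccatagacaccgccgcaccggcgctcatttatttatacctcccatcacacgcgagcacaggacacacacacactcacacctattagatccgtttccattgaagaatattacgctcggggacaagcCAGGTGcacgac
Zfp335, a gene needed for the division of neural progenitors, lies at chr2:164911751-164912000 on the minus strand and holds 1 CAGGTG and 1 CAGCTG.
Zfp335: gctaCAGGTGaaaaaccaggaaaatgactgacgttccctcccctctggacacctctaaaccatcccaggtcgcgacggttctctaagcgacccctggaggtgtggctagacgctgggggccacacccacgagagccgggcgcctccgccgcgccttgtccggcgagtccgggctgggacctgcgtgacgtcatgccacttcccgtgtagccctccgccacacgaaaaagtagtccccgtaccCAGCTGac
Zfp653 lies at chr9:22071377-22071626 on the minus strand and holds no CANNTG in this window.
Zfp653: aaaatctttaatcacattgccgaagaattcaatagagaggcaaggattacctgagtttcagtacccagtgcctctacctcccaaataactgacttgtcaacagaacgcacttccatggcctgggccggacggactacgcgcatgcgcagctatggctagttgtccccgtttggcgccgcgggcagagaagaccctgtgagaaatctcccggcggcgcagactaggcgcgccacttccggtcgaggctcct

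Motifs were counted on both strands in the RefSeq windows of 250 bases before to 50 bases after the start. CAGCTG and CAGGTG are forms of CANNTG, so the counts overlap. CANNTG was present in 41 of 59 windows (69.5%) of numbered Zfp genes with a wt consensus promoter region, where a consensus region is a merged wt region with a peak in at least 2 of the 3 wt lists. It was present in 111 of 165 windows (67.3%) of members of the family without a peak in any list, in 69.0% of windows of protein-coding genes and in 72.3% of all 32851 windows of the table. CAGCTG was in 13.6% of the windows of the consensus group, 12.1% of those without a peak and 16.3% of all windows. CAGGTG was in 13.6%, 11.5% and 20.2% of the same windows. Of the 14 genes with a promoter peak in all 5 lists, 9 were in the table, and 10 of their 11 windows held CANNTG. The 95% Wilson interval of this share, 62.3 to 98.4%, holds the CANNTG shares of the groups above. The E-box shares of the consensus group and of the group without peaks had overlapping 95% Wilson intervals (56.9 to 79.8% and 59.8 to 74.0% for CANNTG). The median window held 18 CpG in the consensus group and 10 in the group without a peak, against 7 in all windows and 13 in those of protein-coding genes. Consensus promoters of protein-coding genes at large held a median of 22 CpG, and CANNTG was in 62.9% of their windows. Only 41 of the 60 genes with a consensus promoter region and 141 of the 163 genes without a peak were in the promoter table.

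Peaks of numbered Zfp genes lay at promoters more often than the other peaks of the same list. The promoter class is the authors' annotation and reaches 2 kb from the start in wt replicate 1 and 1 kb in the other lists. In wt replicate 1, 34 of 73 members were promoter peaks (46.6%, 95% Wilson interval 35.6 to 57.9%), against 22.8% of the other peaks, and on the 1 kb class 26 of 73 (35.6%, 25.6 to 47.1%) against 18.9%. In wt replicate 2 the share was 55 of 146 (37.7%, 30.2 to 45.8%) against 19.3%. In wt replicate 3 it was 130 of 292 (44.5%, 38.9 to 50.3%) against 24.7%. The Zfp share was above that of other peaks in all 3 wt lists, and the intervals did not overlap in any of them under either class.

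Over the wt lists the Zfp share was 42.9% ± 4.66 (SD, n = 3) and that of other peaks 22.3% ± 2.74 (SD, n = 3). The difference was 20.7 percentage points ± 2.77 (SD, n = 3), higher in 3 of 3 lists, with an exact two-sided sign-flip permutation p of 0.25, the smallest that 3 lists allow. The knockout lists had 129 of 299 members at promoters in E12KO (43.1%, against 27.3% of other peaks) and 110 of 263 in E47KO (41.8%, against 25.1%). The differences were 15.8 and 16.7 points, with 1 library each and no test, beside 16.7, 18.4 and 19.8 points in wt replicates 1 to 3 on the 1 kb class. The 3 genes left out by the rule bear on this result: with them counted as members, the mean wt difference was 13.7 points, with shares of 38.1%, 31.1% and 38.7% against 22.9%, 19.3% and 24.7%. Intervals cover counting error only and treat peaks as independent, although peaks of 1 gene are not.

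**Figure D1:**
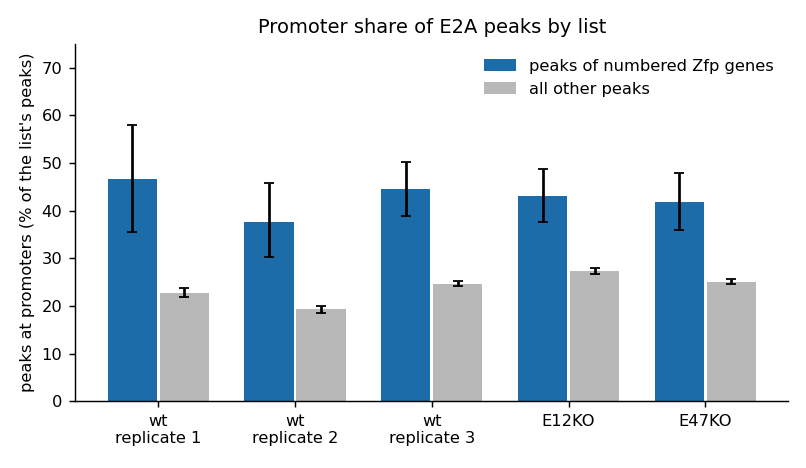
Share of peaks annotated as promoter (%), for peaks of numbered Zfp genes (blue) and all other peaks (grey) in each of the 5 lists, with 95% Wilson intervals as error bars. In each list the blue bar, from 37.7% to 46.6%, stands above the grey bar, from 19.3% to 27.3%.

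Fewer Zfp peaks than other peaks lay in introns. In wt replicate 1, 17.8% of Zfp peaks were intronic against 35.4% of other peaks, while 31.5% and 35.2% were distal intergenic. In wt replicate 2, 18.5% of Zfp peaks and 36.7% of other peaks were intronic, and 37.7% and 38.7% were distal intergenic. Numbered Zfp genes with a peak were shorter than the other genes with one, with a median longest transcript of 15.9 kb against 22.2 kb. The part of gene length in the promoter share was not tested.

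Most promoter peaks of the family covered the start itself. Of those with an edge within 1 kb, 20 of 31 in wt replicate 1 covered the start (64.5%, against 58.1% of other such peaks). The share was 33 of 55 in wt replicate 2 (60% against 54.8%) and 102 of 130 in wt replicate 3 (78.5% against 74.2%). In E12KO it was 113 of 129 (87.6% against 77.4%) and in E47KO 85 of 110 (77.3% against 71.6%). The Zfp value was the higher in all 5 lists, but only in E12KO did the 2 intervals not overlap (80.8 to 92.2% and 76.4 to 78.3%).

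Most members had few peaks. Merged over the 5 lists, 126 of 201 genes had 1 region (62.7%, against 47.4% of other genes), and 16 had 5 or more (8.0%, against 15.2%). The mean was 2.03 regions per gene against 2.71, and 2.30 against 2.71 with the 3 left-out genes, of which Zfp608 alone has 56 regions, counted as members. The number of regions went with their place: genes with 1 region had it at the promoter in 98 of 126 cases (77.8%), genes with 2 to 4 regions had 59 of 148 regions there (39.9%), and genes with 5 or more had 17 of 133 (12.8%). Among other genes these shares were 61.5%, 27.2% and 11.97%. The Zfp share was thus the higher in the first 2 classes and nearly equal in the class with most regions.

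Leaving out every gene with 5 or more regions, members and others alike, raised the Zfp share to 64.3%, 56.5% and 61.7% in wt replicates 1 to 3, against 32.8%, 29.8% and 36.9% of other peaks. This choice was made after seeing the data. At least 1 promoter peak in some list was found for 160 of the 201 genes (79.6%), against 64.0% of other genes.

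The 16 genes with many regions were long, with a median longest transcript of 80.7 kb, and include 5 of the 10 genes of a list for neural development (Zfp462, Zfp521, Zfp536, Zfp423 and Zfp703). They hold 32.7% of all Zfp regions. Of these 16 genes 15 had a wt consensus region, against 35 of the 126 genes with 1 region. A gene with more regions has more chances to hold one, so this contrast is set in part by the sorting.

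**Figure D2:**
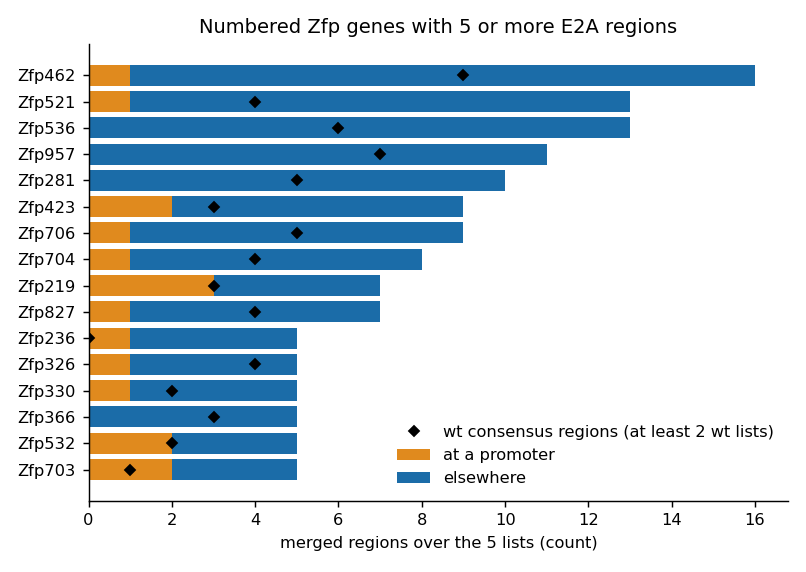
Merged regions over the 5 lists (count, x axis) for the 16 numbered Zfp genes with 5 or more, split into regions at a promoter (orange) and elsewhere (blue), with diamonds for the number of wt consensus regions. Zfp462 leads with 16 regions, 1 of them at its promoter and 9 of them wt consensus regions.

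Zfp462, which encodes a large nuclear zinc-finger protein that works with silencing enzymes in stem cells, had the most regions. It had 7, 7 and 13 peaks in wt replicates 1 to 3, 13 in E12KO and 15 in E47KO, in 16 regions between positions 54482809 and 55161955 of chromosome 4 (mm9). Of these, 9 were wt consensus regions and 5 were in all 3 wt lists and both knockouts. The strongest Zfp peak of wt replicate 1 was among them, at chr4:54546598-54547356, distal intergenic and 413461 bp upstream of the Zfp462 start, with a fold enrichment over background of 57.4 and a −log10 q of 261. Such scores are the authors' and are given for wt replicate 1 alone. At that distance the nearest gene is an annotation and not a shown target.

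Zfp536, a brain-expressed repressor of neuronal differentiation, had 13 regions and none at a promoter. Its peaks numbered 1 in wt replicate 1, 6 in wt replicate 2, 10 in wt replicate 3 and 9 in each knockout, and 12 of the 13 regions were intronic. None was in all 3 wt lists, and 6 were wt consensus regions, all found in both knockouts. Zfp521, a stem-cell factor that promotes early neural fate, had 13 regions with 2, 4, 11, 7 and 7 peaks in the same order of lists. Its promoter region, chr18:14128422-14131605 (mm9), had a peak in every list, as did a region 347286 bp upstream. Among the wt lists alone this promoter region was 2 separate consensus regions, chr18:14128437-14130577 in wt replicates 1 and 3 and chr18:14130891-14131605 in wt replicates 2 and 3. The upstream region was in all 3 wt lists.

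Zfp957 had 11 regions, with 3, 7 and 9 peaks in wt replicates 1 to 3, 9 in E12KO and 11 in E47KO, and none lay at its promoter. Of these, 3 were in all 5 lists, at fold enrichments of 6.65, 8.78 and 8.04 in wt replicate 1. Zfp281, a zinc-finger factor that acts with the pluripotency network, had 10 regions, none within 10 kb of its start. Its peaks numbered 1, 5 and 9 in the wt lists, 9 in E12KO and 8 in E47KO, and no region was in all 3 wt lists.

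Against the whole gene table, numbered Zfp genes were occupied about as often as other genes. RefSeq lists 364 protein-coding numbered Zfp genes, of which 201 had a peak in some list, 163 had none, and 52.1% of all protein-coding genes had one. A wt consensus region within 10 kb of the start was present for 69 (19.0%, 95% Wilson interval 15.3 to 23.3%), beside a background of 16.7% of 21900 protein-coding genes. At the promoter the count was 60 (16.5%, 13.03 to 20.64%) beside 11.9%, and at any distance 87 (23.9%, 19.8 to 28.5%) beside 27.6%. The background lay inside the interval for the first and the last of these and below it for promoters.

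Within 10 kb, wt replicate 1 had a peak for 34 of the 364 genes (9.3%, against 9.4% of all protein-coding genes), wt replicate 2 for 70 (19.2% against 15.5%) and wt replicate 3 for 130 (35.7% against 31.0%). E12KO had 139 (38.2% against 34.3%) and E47KO 114 (31.3% against 29.0%). The count of 69 rests on the longer lists. With 1 wt list left out, a region had to be in both remaining lists, a stricter rule than 2 of 3, so list and rule change together. Without wt replicate 3 it was 15 (4.12%, against 5.28% of all genes, an order opposite to that with all lists), without wt replicate 2 it was 29 (7.97% against 7.75%), and with a region required in all 3 wt lists it was 17 (4.67%, against 5.42% of all genes). In related name families, 7 of 30 Zfp genes with a letter suffix (23.3%), 15 of 41 Zbtb genes (36.6%) and 2 of 27 Zscan and Zkscan genes (7.41%) had a consensus region within 10 kb.

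Lists of members by known role gave uneven counts, each to be read beside the 16.7% of all protein-coding genes. In the list for neural development, 7 of 10 genes had a wt consensus region within 10 kb and all 10 had a peak in some list. Zfp423, a partner of Ebf and Smad factors needed for the cerebellar midline, had 2, 4, 5, 6 and 6 peaks in wt replicates 1 to 3, E12KO and E47KO. Its promoter region, chr8:90481784-90483466, was in every list at 9.26-fold in wt replicate 1. Zfp335 had exactly 1 peak in every list, in a region over its start at chr2:164736223-164738145, at 5.28-fold in wt replicate 1. Zfp462, Zfp521, Zfp423 and Zfp335 were the genes of the list with a promoter peak in all 5 lists.

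Zfp703, a co-repressor, had 1, 1, 2, 3 and 2 peaks, and its single consensus region lay 2790 bp upstream of the start. Zfp365, which encodes a protein of growing neurites, had none in wt replicate 1 and 3, 3, 4 and 3 in the other lists, with a consensus region over its start. The 3 without a consensus region were Zfp503, a factor of the developing striatum, with peaks in 3 lists, Zfp292 with peaks in 2 lists and Zfp407 with peaks in 4 lists.

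Of 6 genes of pluripotency and imprinting, 1 had a consensus region within 10 kb and 4 had one at any distance. Zfp568, a KRAB factor that silences a placental transcript of Igf2, carried it at the promoter, at 4.99-fold in wt replicate 1 and in every list. Zfp445, a KRAB factor that protects imprints, had its single region 28586 bp downstream of the start, at 14.8-fold and in every list. Zfp217 had a region 75726 bp upstream in every list, at 13.1-fold. Zfp281 had 5 consensus regions, all beyond 10 kb. Zfp42, the stem-cell marker also called Rex1, had 1 peak in wt replicate 3 alone, 49261 bp upstream, and the imprint guardian Zfp57 had none.

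No gene of the retroelement list had a consensus region, although all 4 had a peak in some list. Zfp809, which silences retroviruses through their primer binding site, had a promoter region in both knockouts and no wt list. Zfp708 had a promoter peak in wt replicate 3 alone and Zfp819 a peak 4727 bp upstream in E12KO alone. Zfp932 had a region 72450 bp upstream in both knockouts.

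Among 7 broadly expressed transcription factors, 4 had a consensus region within 10 kb. Zfp91, which also acts as a ubiquitin ligase, had a merged region over its start with a peak from every list, at 7.04-fold in wt replicate 1. Each list except E47KO had a promoter peak there, and the E47KO peak lay outside the promoter class. Zfp219, a partner of Sox9, had 7 regions, with its promoter region in every list at 6.77-fold. Zfp143, an activator bound at many promoters, had a promoter region in 4 lists and none in wt replicate 1. Zfp384 had a promoter region in wt replicates 1 and 3 and E12KO. Zfp148 had its consensus region 42784 bp upstream, and Zfp64 and Zfp691 had none.

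Of 7 genes of RNA binding and mitosis, 2 had a consensus region within 10 kb. They were Zfp36, whose product tristetraprolin destabilises AU-rich transcripts, with a region 2120 bp upstream in 4 lists, and Zfp106, with a region over a start in 4 lists. Zfp207, a spindle protein, had 1 promoter peak, in E47KO alone, Zfp638 had a region in 2 lists, and Zfp318, Zfp346 and Zfp830 had no peak. Of 16 genes for cofactors of KRAB proteins, 4 had a consensus region within 10 kb and 15 had a peak. Those with a region in all 3 wt lists were Chd3, a nucleosome remodeller (24.7-fold), Cbx5, which encodes HP1α (11.3-fold), and Atf7ip, a partner of Setdb1 (6.49-fold). Trim28 itself had a promoter peak in 1 list.

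Peak strength in wt replicate 1 was similar in the family and outside it. The median fold enrichment was 6.80 for 73 Zfp peaks and 7.48 for 6741 others. At promoters the medians were 6.62 and 6.76, and elsewhere 6.99 and 7.78. In regions found in all 5 lists they were 7.66 and 8.41, and in regions of fewer lists 6.18 and 6.41. The Zfp median was the lower in each of these pairs, and no test was made. The quartiles of all Zfp peaks were 5.53 and 9.43, a spread of single peaks that does not measure the error of a median.

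**Figure D3:**
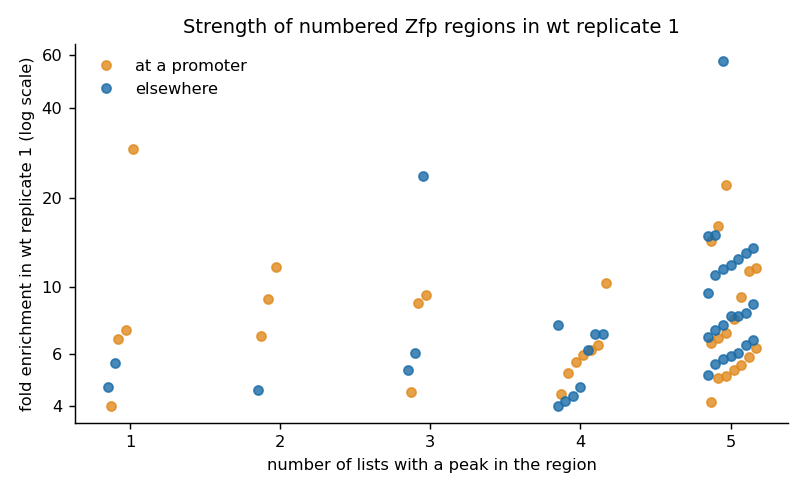
Fold enrichment in wt replicate 1 (log axis) of each numbered Zfp region with a peak there, by the number of lists with a peak in the region, at a promoter (orange) or elsewhere (blue), with points spread sideways for view. The highest point, at 57.4-fold in all 5 lists, is the region upstream of Zfp462, and the orange point at 29.2-fold in 1 list is the Zfp369 promoter.

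The strongest promoter in all lists was that of Zfp467, at chr6:48393894-48395571 (mm9). Its peak stood at 22.1-fold in wt replicate 1, and peaks covered the start in all lists except wt replicate 2, where the edge lay 382 bp away. Zfp651 followed at 14.3-fold, with peaks between chr9:121668474-121670408 in every list. Zfp41, with 2 peaks at its promoter in wt replicate 1, reached 11.6-fold there. Zfp532 reached 16.1-fold with an edge 1212 bp from the start in wt replicate 1, where it is annotated as promoter, and the same region is annotated as intron in the other 4 lists.

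The remaining strong regions in all 5 lists lay far from starts. Zfp706 had one at 13.6-fold, 67986 bp from its start at the nearest. Zfp704, a long gene, had an intronic one 63473 bp inside. Zfp366, a factor of dendritic cells, had one at 11.9-fold, 55156 bp away. A pair of strong peaks was not shared in this way, and was picked after its values were seen. The Zfp369 promoter peak, chr13:65379550-65380207, stood at 29.2-fold in wt replicate 1 and had no peak in any other list. Of the 482 peaks of wt replicate 1 at 20-fold or more, 13 were in no other list. The Zfp326 region chr5:106348742-106349339, at 23.6-fold, was found in wt replicates 1 and 3 and E12KO.

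Zfp regions were spread over the lists much like other regions. Of 407 regions, 41 had a peak in all 5 lists (10.1%, 95% Wilson interval 7.5 to 13.4%), beside 12.7% of all merged regions. In 4 of the 407 some overlapping peaks are annotated to other genes. Among them is the Zfp661 region, counted in all 5 lists although only its E12KO peak is annotated to Zfp661. Single-list regions made up 133 (32.7%, 28.3 to 37.4%) against 28.3% of other regions. The commonest patterns were wt replicates 2 and 3 with both knockouts, with 74 regions (18.2%, against 19.1% of other regions), and wt replicate 3 with both knockouts, with 59 (14.5% against 17.8%). Wt replicate 3 alone had 46 (11.3% against 7.69%) and E12KO alone 45 (11.1% against 9.59%). The shares of all or of other regions lay inside the Zfp intervals for all 5 lists and for 1 list. By gene, 33 of 201 had a peak in every list (16.4%, against 25.9% of other genes), and 45 in 1 list (22.4% against 16.9%). Peaks in knockout lists alone were found for 36 (17.9% against 12.3%), and in wt lists alone for 23 (11.4% against 8.58%). These gene counts stand beside the lower mean number of regions per member, whose part in them was not tested.

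**Figure D4:**
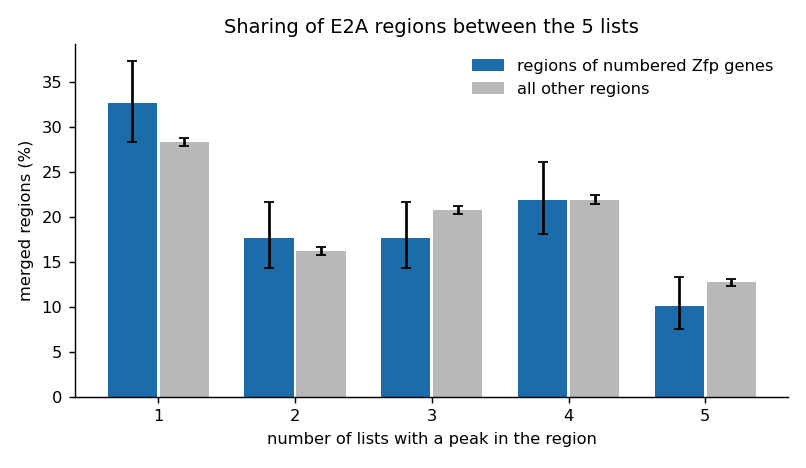
Share of merged regions (%) found in 1, 2, 3, 4 or all 5 lists, for regions of numbered Zfp genes (blue, 407 regions) and all other regions (grey, 32286 regions), with 95% Wilson intervals as error bars. Single-list regions are the tallest class in both, at 32.7% and 28.3%, and regions in all 5 lists are the smallest, at 10.1% and 12.7%.

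Most Zfp regions occupied in wt cells also had a peak in each knockout. The wt lists gave 143 Zfp consensus regions, 61 of them at promoters. E12KO had a peak in 137 (95.8%, 95% Wilson interval 91.2 to 98.1%), beside 96.6% of all 12322 consensus regions. E47KO had a peak in 132 (92.3%, 86.8 to 95.7%), beside 93.5%. Both background shares lay inside the Zfp intervals. Zfp promoter regions had values of 95.1% in E12KO and 93.4% in E47KO, beside 96.4% and 92.2% of all promoter consensus regions. The other Zfp regions had 96.3% and 91.5%, beside 96.7% and 93.9%. These background shares also lay inside the Zfp intervals.

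For comparison, each wt list in turn was set aside and the Zfp regions common to the remaining 2 were sought in it. They were found in 39 of 120 cases for wt replicate 1 (32.5%, 95% Wilson interval 24.8 to 41.3%, against 38.4% of all such regions), 39 of 62 for wt replicate 2 (62.9%, 50.5 to 73.8%, against 77%) and 38 of 38 for wt replicate 3 (against 98.9%). For wt replicate 2 the share of all regions lay above the Zfp interval. The same regions had a peak in 90.3 to 100% of cases in the knockouts. The shortest list had the lowest share and the knockouts are among the 3 longest lists, so genotype and list length cannot be told apart here.

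Of the 143 regions, 13 lacked a peak in 1 or both knockouts (9.09%, beside 7.99% of all consensus regions), and all 13 were in only 2 of the 3 wt lists. The 39 Zfp regions in all 3 wt lists had a peak in both knockouts, as did 98.2% of all 4228 such regions. Missing in E12KO only (1.40%, beside 1.49% of all) were the promoters of Zfp740 (9.43-fold in wt replicate 1) and Zfp28. Missing in E47KO only were 7 regions (4.90%, beside 4.63% of all). They include 2 downstream of Zfp326, which encodes a protein linking splicing to transcription, the first at 23.6-fold and the other 98910 bp away. They also include the promoters of Zfp395 (8.87-fold), Zfp384 (4.47-fold) and Zfp637, and a region 23129 bp from the start of Zfp618.

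Missing in both were 4 regions (2.80%, beside 1.87% of all). They lay 1370 bp from the start of Zfp276 (9.15-fold), 94488 bp from that of Zfp618 (4.52-fold), 229972 bp upstream of Zfp521 and 14074 bp from the start of Zfp72. Each is 1 library without a called peak. Conversely, 21 Zfp regions had peaks in both knockouts and in no wt list (5.16% of Zfp regions, against 4.398% of other regions). The widest were the promoter regions of Zfp787 (1859 bp) and Zfp444 (1326 bp), neighbours on chromosome 7, and of Zfp629 (1096 bp). A region 3837 bp upstream of Zfp692 (1506 bp wide) and a region 1656 bp upstream of Zfp462 (1298 bp wide) completed the first 5.

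Genes that lie in clusters had peaks less often than those outside them. By RefSeq order, 224 of the 364 genes fell in 34 clusters of at least 3 numbered Zfp genes with gaps of at most 500 kb, and 140 did not. These 140 are called solitary below, although pairs of neighbours and neighbours of other zinc-finger names were not set apart. A wt consensus region within 10 kb was present for 27 of the 224 (12.1%, 95% Wilson interval 8.4 to 17.0%) and for 42 of the 140 (30%, 23.03 to 38.04%), beside 16.7% of all protein-coding genes. A peak in any list was present for 106 (47.3%, 40.9 to 53.9%) and 95 (67.9%, 59.73 to 75.03%), beside 52.1% of all protein-coding genes, which lies inside the interval of the clustered genes. The order was the same in each list: clustered genes had a peak in 7.6%, 15.6% and 32.1% of cases in wt replicates 1 to 3, 36.2% in E12KO and 30.8% in E47KO, against 22.9%, 39.3%, 56.4%, 57.9% and 54.3% of solitary genes. Where clustered genes did have regions, 89 of 135 were at promoters (65.9%, 57.6 to 73.4%), against 85 of 272 (31.3%, 26.0 to 37.0%) for solitary genes. Of all other merged regions, 8357 of 32286 were at promoters, so the solitary genes lay much nearer to these than the clustered genes did. The intervals for a consensus region did not overlap, and no test was made of these differences. Neighbouring copies can be alike in sequence, and how reads with several matching sites were treated is not given in the sources used here, so the part of mappability in these counts was not tested.

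**Figure D5:**
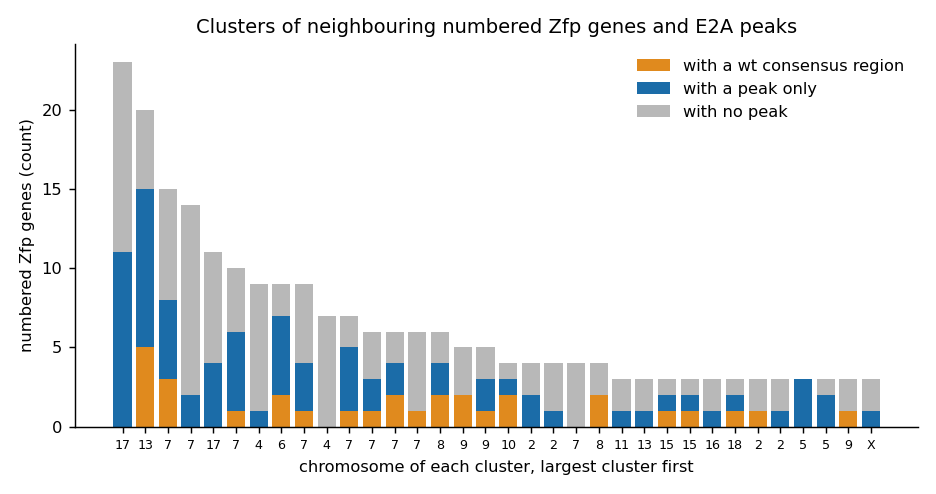
Number of numbered Zfp genes (y axis, count) in each of the 34 RefSeq clusters, from the largest, labelled by chromosome. Bars are split into genes with a wt consensus region at any distance (orange), with a peak only (blue) and with no peak (grey). The largest, 23 genes on chromosome 17, has 11 genes with a peak and no orange part, while the second, on chromosome 13, has 15 of 20 with a peak and 5 with a consensus region.

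The clusters differed among themselves. The largest group of occupied neighbours was on chromosome 13, where 15 genes had 18 regions, 15 of them at promoters, between starts at 67162106 and 67914753 (mm9). The peaks numbered 0 in wt replicate 1, 5 in wt replicate 2, 15 in wt replicate 3, 14 in E12KO and 10 in E47KO. Consensus regions belonged to Zfp458, Zfp595, Zfp65, Zfp493 and Zfp273, each with 1 region in all lists except wt replicate 1, and in 4 of them this region covered the start. For Zfp65 it was intronic, 4594 bp from the start. Of the others, Zfp759, Zfp457 and Zfp738 had a promoter region in wt replicate 3 and both knockouts. Zfp708, Zfp87 and Zfp748 had a promoter peak in wt replicate 3 alone, Zfp712 and Zfp85 in E12KO alone, and Zfp58 in these 2 lists. Zfp459 had an intronic region in both knockouts. No gene of this group had a peak in every list.

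On chromosome 7, 8 neighbours between starts at 30553571 and 30906967 had 12 regions, with 2, 4, 7, 9 and 8 peaks in the order of lists. Zfp568 and Zfp420 had a region in all 5 lists, at 4.99-fold over the Zfp568 start and 9.61-fold in a Zfp420 intron. Zfp27 had a consensus region 2209 bp upstream of its annotated start, in 4 lists. Zfp940 and Zfp74 had a promoter region in wt replicate 3 and both knockouts, Zfp382 one in wt replicate 2 and both knockouts, Zfp14 one in E47KO alone, and Zfp84 a region in E12KO alone.

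The third group, on chromosome 17 between starts at 21625952 and 22498420, had 7 genes with 1 region each and no consensus region. Its peaks numbered 0, 0, 5, 5 and 3. Promoter regions were those of Zfp948 and Zfp758, in wt replicate 3 and both knockouts, and Zfp942, in wt replicate 3 and E12KO. Zfp53, Zfp52, Zfp760 and Zfp947 had regions outside promoters, in 1 or 2 lists. Other clusters were all but empty: of 14 genes in another chromosome 7 cluster 2 had a peak, of 9 genes on chromosome 4 only Zfp933 did, and 7 genes on chromosome 4 and 4 on chromosome 7 had none. Altogether 15 groups of at least 3 occupied neighbours held 79 of the 201 genes, and 2 such groups remained when only genes with a consensus region were counted.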

How the data were processed

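E2A was immunoprecipitated from E12.5 neural stem cells in 3 wt, 1 E12KO and 1 E47KO libraries, and each library has its own deposited peak list. The mm9 genome, MACS2 2.1.0, BWA 0.7.13 and Picard 1.119 are named in the submitters' processing notes, with settings not given in the sources used here. Each deposited list gives each peak's position, annotated feature, nearest gene and distance to its start, per the file headers. Only the deposited list of wt replicate 1 holds scores: the −log10 p and −log10 q, a fold enrichment (ratio of ChIP to background) and the pileup signal (coverage), as the authors' caller wrote them. They were used to describe peaks within that list alone. Depth is unknown, so no precision from read counts can be given.

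The authors' promoter class reaches 2 kb in wt replicate 1 and 1 kb in the other 4 lists. Distances were recomputed here from a peak's nearest edge, because those of wt replicate 1 use the far edge. Peaks overlapping by at least 1 bp were merged with Python 3.11.15 and pandas 2.3.3. Merged regions of the 3 wt lists with peaks from at least 2 lists were wt consensus regions. Of 202 member symbols, 1 was an older symbol of another member and was joined to it by gene identifier. Gene names, numbers of genes and neighbours came from RefSeq (GRCm38.p6), promoter sequences likewise, and no coordinates were converted. Shares carry 95% Wilson intervals (scipy 1.17.1), and the wt promoter difference an exact sign-flip permutation test. The calculations were tested on simulated lists.

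Named were the 10 genes strongest in wt replicate 1 among regions in all 3 wt lists, the 5 with most regions, up to 5 with consensus regions missing in E12KO only, in E47KO only or in both, the 5 widest regions with peaks in both knockouts but none in wt, the members of the 3 largest groups of occupied neighbours, and the members of the role lists. A few further genes are named where they fall outside this rule, chosen after their values were seen. The members and lists were chosen with earlier results of these data known. A planned count of zinc fingers and KRAB motifs in proteins was not run. Alternatives covered the promoter distance, overlap, wt lists required, gene distance, cluster gap and each wt library left out.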

Additional observations from a re-analysis of the deposited data

How the results depend on the processing

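The excess of promoter peaks over other peaks, 20.7 percentage points in the wt mean, ranged from 17.9 to 20.5 under the other definitions of promoter or member. It was 27.7 without genes of 5 or more regions and 13.7 with the 3 left-out genes added back, where the mean number of regions per gene was 2.30 in place of 2.03. These 2 choices and a 1 kb promoter class in every list (18.3) were made after seeing the data. The excess was 19.1 to 21.8 with 1 wt library left out. The count of 69 genes with a consensus region within 10 kb was 17 with regions in all 3 wt lists, and 15 to 59 with 1 wt library left out. For consensus regions, here and below, leaving 1 library out means that a region must be in both remaining wt lists. The count was 69 with an overlap of 50% or a −log10 q of at least 5. The share of Zfp consensus regions with a peak was 100% in E12KO and 100% in E47KO for regions in all 3 wt lists, beside 99.6% and 98.4% of all such regions. With 1 wt library left out the E12KO range was 95.2 to 100%, and that of E47KO 90.3 to 100%. The 15 groups of occupied neighbours became 12 and 15 with gaps of 250 and 1000 kb, and 2 with consensus genes alone. Of 78 named genes, the number of consensus regions moved by a large part for 32 with wt replicate 3 left out. It did so for 25 with wt replicate 2 left out and for 6 with wt replicate 1 left out. Smaller changes were not counted, so more genes changed than these. With wt replicate 1 left out, 2 to 1 for Zfp395 counted, and 5 to 4 for Zfp281 and 3 to 2 for Zfp366 did not. The cause of the changes was not tested. No paired analysis was possible because the knockouts have 1 library each and carry no replicate number. The planned count of protein motifs was not run. A peak missing from a list shows only that none was called, and list lengths, which limit what could be found, run from 6814 to 25229 peaks.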
